A study of Nicotiana tabacum with 21 samples.

Results

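VBI-2 is a tobacco (Nicotiana tabacum cv. Virginia Bright Italia) suspension line that divides without auxin in its medium, a state called auxin habituation. The values below compare VBI-2 cells harvested in the stationary phase (day 10, 3 libraries) with VBI-2 cells harvested in the exponential phase (day 3, 3 libraries), which are 6 of the 21 libraries of the series. They were chosen by their line and growth stage labels, and both groups carry the label auxin free. The other groups used here were VBI-0 stationary and VBI-0 exponential cells, the auxin-dependent line from which VBI-2 was derived, kept in modified Heller medium with 2,4-D and NAA (2 synthetic auxins), and BY-2H stationary and BY-2H exponential cells, a habituated line of cv. Bright Yellow 2 kept in Murashige and Skoog medium without 2,4-D (3 libraries each, the same days). VBI-2 grew in modified Heller medium without those auxins. Stationary cells of BY-2 (3 libraries), the auxin-dependent Bright Yellow 2 line kept in Murashige and Skoog medium with 2,4-D, had no exponential counterpart in the series. They entered only the filter on level and the fits of all 21 libraries. The paper reports that BY-2H carries many copies of the genome region holding the auxin receptor gene NtTIR1T. No line was treated, and all were kept shaken in the dark. VBI-2 is a single derived line, so its replicates are biological replicates of 1 culture, as the labels call them, and not of independent habituation events. Phase here means day of culture, and with it the age of the medium, cell density and division rate, which cannot be told apart.

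Auxin (indole-3-acetic acid, IAA) is made from tryptophan, largely through the TAA1 and YUCCA enzymes. It enters cells through AUX1/LAX permeases, leaves through PIN carriers, and is inactivated by GH3 enzymes that join it to amino acids, by the oxidase DAO1 and by glucosyltransferases. In the nucleus it lets TIR1/AFB receptors mark AUX/IAA repressors for degradation, which frees ARF factors to act on promoters. Many AUX/IAA and GH3 genes are themselves switched on by auxin, so their transcripts are widely used as readouts of the response. These roles were worked out mostly in Arabidopsis. Tobacco is an allotetraploid, and the suffixes S and T in names such as NtLAX3S and NtLAX3T mark copies from its 2 ancestral genomes.

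The 6 VBI-2 libraries held 10545447 to 17950005 estimated reads in the stationary phase and 13273004 to 17331422 in the exponential phase. Correlations of log-scale expression between replicates of a phase were 0.978 to 0.982, against 0.970 to 0.974 between phases, and the first principal component (35.6% of the variance) separated the phases. No 2 replicates agreed within sampling noise. The line labels matched the line markers of the study. These were chosen on these libraries by line, so the match is no independent check, and it does not bear on the phase labels. The 6 floral MADS-box transcripts lay between 5.16 and 352 TPM (a level corrected for transcript length and library depth) in all 6 VBI-2 libraries and at 0.217 TPM or below in VBI-0, whereas an EMF2-like transcript (Nitab4.5_0007599g0010.1) lay at 0.04 TPM or below in VBI-2 and at 13 to 18.4 TPM in VBI-0.

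To ask what distinguishes the 2 phases of the habituated line, transcripts were called where edgeR's quasi-likelihood test passed 0.05 after Benjamini-Hochberg adjustment together with a log2 fold change (stationary over exponential) of at least 1 in size. Of 48440 transcripts tested, 481 were called higher (0.993%) and 292 lower (0.603%) in stationary VBI-2 cells, together 1.6% of those tested. Without the fold limit, 1115 transcripts (2.3%) passed as higher and 1317 (2.72%) as lower, so the larger share of the transcripts passing on adjusted p alone was lower in stationary cells. Changes of at least 4-fold, a log2 value of 2, were found for 151 transcripts called higher and 51 called lower. The transcripts called higher had a median level of 11.5 TPM in stationary cells and 3.38 TPM in exponential cells, and summed to 32553 TPM and 11573 TPM. Those called lower had medians of 1.76 TPM and 4.67 TPM and summed to 2578 TPM in stationary and 6636 TPM in exponential cells. Their calls depended on 1 library more than those of the other direction. Without exponential replicate 1, 174 transcripts were called lower and 429 higher.

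With the fold limit, the auxin-related transcripts that were called were mainly lower in stationary cells, whereas most calls were higher. Most auxin-related transcripts were not called. In 10 classes of auxin genes that the study listed (perception and response, metabolism and transport), 282 transcripts were listed, 226 were tested, 22 were called lower and 1 higher in stationary VBI-2 cells. The share called lower was 9.73%, beside 0.603% of all transcripts tested. The median log2 fold change of the 226 was -0.13, beside 0 over all transcripts tested. At an unadjusted p under 0.05, 53 were lower and 17 higher, 31% of the 226 beside 16.3% of all transcripts. Genes of auxin inactivation gave 8 of the 22, AUX/IAA genes 8, LAX influx carriers 3, ARF genes 2 and biosynthesis 1.

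**Figure D1:**
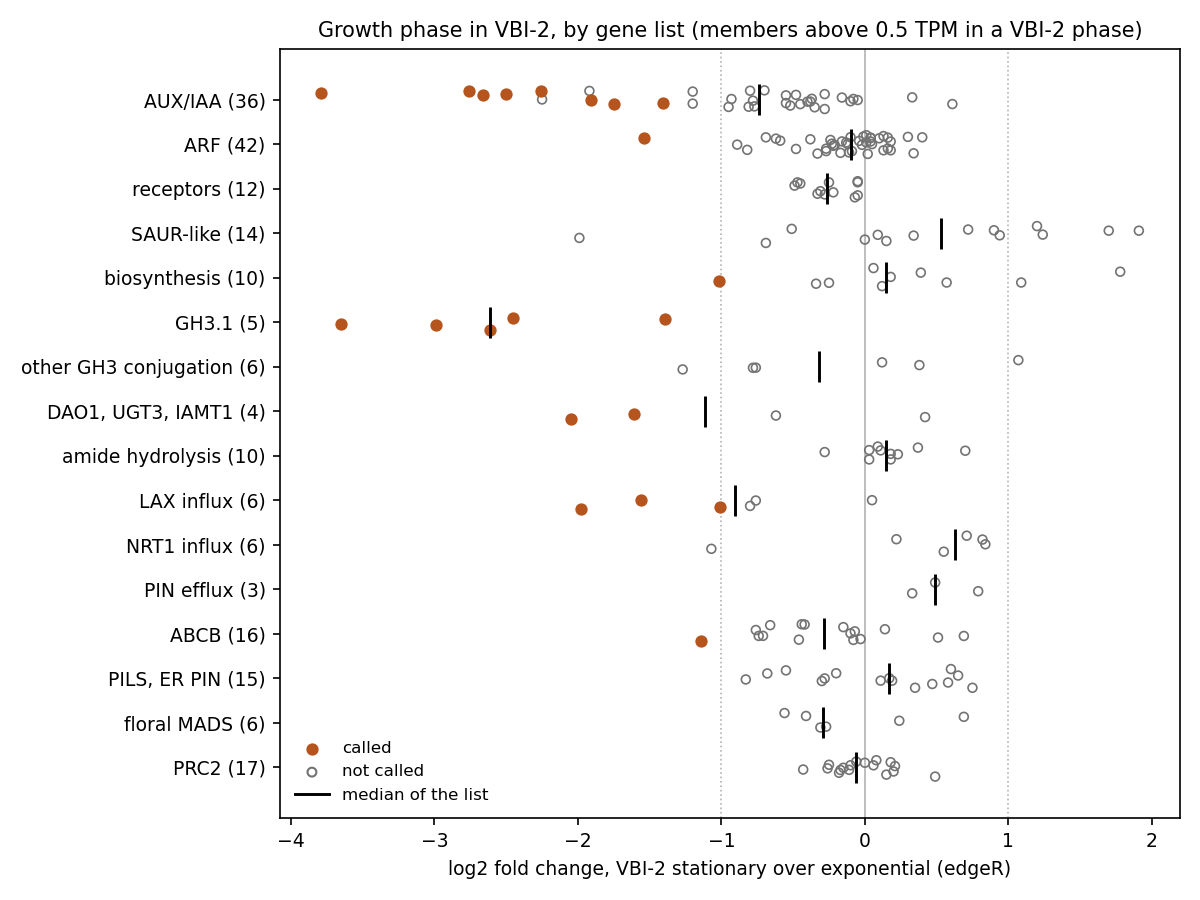
Log2 fold change of stationary over exponential VBI-2 cells (x axis, edgeR) for transcripts of each gene list above 0.5 TPM in a VBI-2 phase (y axis, number shown in brackets). Filled points are called, open points are not, black bars are list medians and dotted lines mark the fold limit. Called points of the AUX/IAA, GH3.1, DAO1/UGT3 and LAX rows all lie left of 0, and the rows for receptors, SAUR-like genes and PIN carriers hold no called point.

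The strongest change was in the GH3.1 group of IAA-amido synthetases. All 6 NtGH3.1 transcripts fell, with a median log2 fold change of -2.76 and a range of -3.65 to -1.39. NtGH3.1bT2 (Nitab4.5_0000284g0040.1) stood at 0.277, 0.28 and 0.432 TPM in stationary replicates 1 to 3, against 6.95, 3.19 and 1.97 TPM in exponential replicates 1 to 3. The lowest exponential library was above the highest stationary one by more than 4-fold, and the log2 fold change was -3.65 ± 0.43 (SE, edgeR adjusted p = 2.71e-05). NtGH3.1bS1, the most abundant member in exponential cells, had 0.867, 0.65 and 1.25 TPM in stationary libraries, against 10.7, 4.8 and 5.33 TPM in exponential libraries (-2.99 ± 0.31, edgeR adjusted p = 6.08e-06). NtGH3.1aS had 0.92, 0.354 and 0.814 TPM, against 6.12, 2.82 and 2.82 TPM (-2.61 ± 0.32, edgeR adjusted p = 3.37e-05). The phases did not overlap in any of the 6, a pattern seen for 9.02% of all transcripts tested in this direction. In bulk RNA, fewer cells that express a gene and less of its RNA per cell cannot be told apart.

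The remaining NtGH3.1 transcripts were rarer or less certain. NtGH3.1aT stayed under 1 TPM in every library (14 reads in the 3 stationary and 80 in the 3 exponential libraries, log2 fold change -2.45), as did NtGH3.1bT1 (5 and 41 reads, -2.91). NtGH3.1bS2crip gave 0.995, 1.1 and 2.47 TPM in stationary and 6.27, 2.91 and 2.49 TPM in exponential libraries (-1.39 ± 0.32, edgeR adjusted p = 0.0129), so that the nearest libraries of the 2 phases were almost level. Its call was lost without exponential replicate 1 (-0.88, edgeR adjusted p = 0.127). Near-identical copies can exchange reads in transcript quantification, and the sum over the 6 is less exposed to that. It was 3.21, 2.57 and 5.25 TPM in stationary cells and 31.5, 15.1 and 13.4 TPM in exponential cells, a ratio of means of 0.184.

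The related GH3.6 group held no call, and its summed level was similar in the 2 phases. Of 14 listed transcripts 12 were tested and none was called in either direction by edgeR (3 lower and 1 higher at an unadjusted p under 0.05). The median log2 fold change was -0.77 over the 12 tested and -0.32 over the 6 above 0.5 TPM in a VBI-2 phase. The summed level was 30.4 ± 2.61 TPM in stationary cells and 30.8 ± 7.51 TPM in exponential cells (SD, n = 3 each). NtGH3.6dT (Nitab4.5_0000677g0200.1) was lower without reaching the fold limit (-0.76 ± 0.12, edgeR adjusted p = 0.000434). NtGH3.6bS went the other way, with 4.43, 3.82 and 3.94 TPM in stationary and 2.89, 1.51 and 1.27 TPM in exponential libraries. Its log2 fold change of 1.07 ± 0.33 missed the adjusted p limit (edgeR adjusted p = 0.0701), which it passed without exponential replicate 1 (1.56, edgeR adjusted p = 0.0167).

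The oxidative and glycosylating routes of inactivation were lower in stationary cells as well. NtDAO1T, a homolog of the dioxygenase that starts IAA oxidation in Arabidopsis, had 18.8, 14.4 and 22.9 TPM in stationary libraries, against 122, 56.8 and 56 TPM in exponential libraries. It fell by 2.05 ± 0.23 on the log2 scale (edgeR adjusted p = 1.64e-05), and without exponential replicate 1, which stood far above the other exponential libraries, by 1.58 (adjusted p = 1.14e-05). Its S copy NtDAO1S had 20.8, 16 and 16.5 TPM in stationary and 34.9, 22 and 25.7 TPM in exponential libraries. This difference (-0.62 ± 0.16, edgeR adjusted p = 0.03) was under the fold limit and missed the adjusted p limit without exponential replicate 1 (-0.42, edgeR adjusted p = 0.205). Thus the T copy accounted for most of the change in the summed NtDAO1 level, which was 36.5 ± 5.28 TPM in stationary and 106 ± 44.3 TPM in exponential cells (SD, n = 3 each).

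NtUGT3T, listed by the study under auxin glycosylation, stood at 13, 9.88 and 15.5 TPM in stationary cells and 52.9, 29.3 and 32.6 TPM in exponential cells. It fell by 1.61 ± 0.2 (edgeR adjusted p = 3.24e-05). Its S copy had no reads in exponential cells. The 4 NtIAMT1 transcripts, of IAA methylation, held at most 0.827 TPM on average in exponential cells and none was called. In the whole inactivation class 8 of 26 tested transcripts were called lower and 0 higher (12 lower and 1 higher at an unadjusted p under 0.05), with a median of -0.90 on the log2 scale. DESeq2 likewise called 8 lower. Called lower were 5 with limma on log2(TPM + 0.5) and 5 with all 21 libraries in the edgeR fit, where NtGH3.1aT and NtGH3.1bT1, the rarest members, were among those lost. In a test against a log2 fold change of 1 itself, 4 were called, namely NtGH3.1bT2, NtGH3.1bS1, NtGH3.1aS and NtDAO1T, the only listed auxin transcripts of the 10 classes to pass that test.

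**Figure D2:**
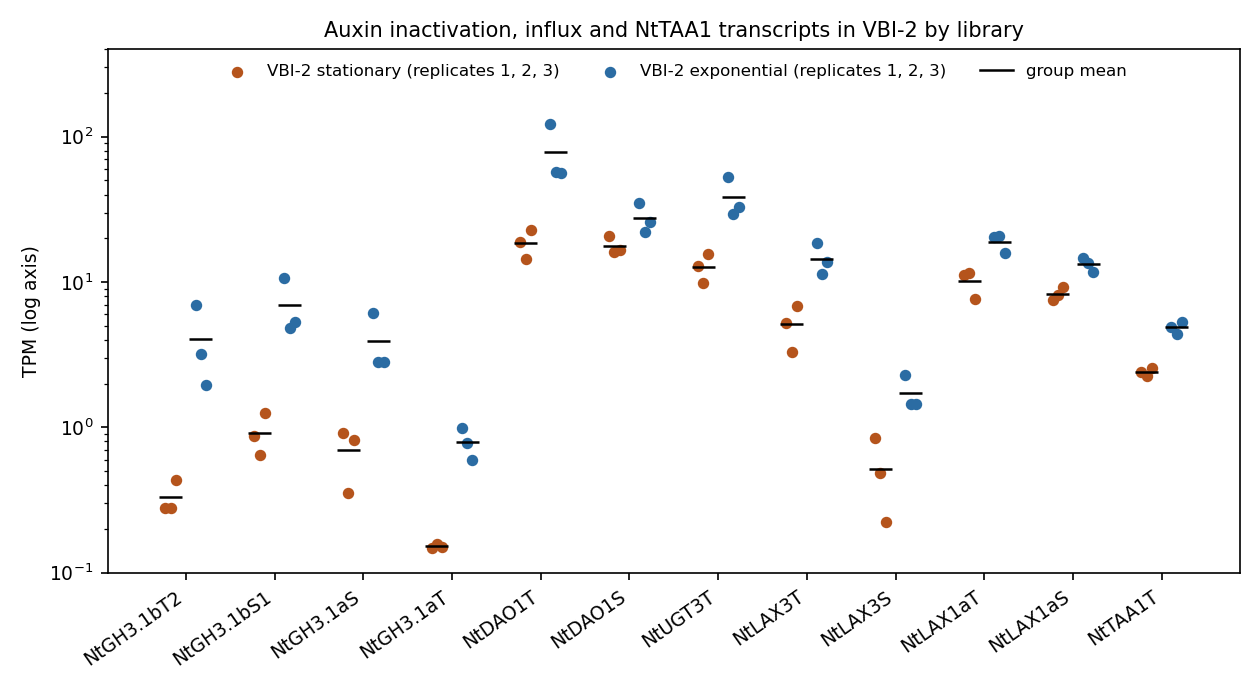
TPM (log axis) of 12 auxin inactivation, influx and biosynthesis transcripts in each VBI-2 library. Stationary libraries stand left of exponential libraries, points run from replicate 1 to 3 in each group, and bars are group means. The 2 phases do not overlap for any of the 12, and exponential replicate 1 is the highest library for 10 of them. The 12 were picked with their values known, so these counts are a description. Of all transcripts tested, 9.02% were lower in stationary cells without overlap. Exponential replicate 1 was the highest exponential library for 38.6% of transcripts above 0.5 TPM in a VBI-2 phase.

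AUX/IAA repressor genes formed the second group. Of 50 listed, 47 were tested, 8 fell and 0 rose, and the median log2 fold change was -0.70. Without the fold limit 11 were lower and 0 higher, and at an unadjusted p under 0.05, which 8.92% of all transcripts passed as lower and 7.39% as higher, 20 were lower and 0 higher. The summed level was 486, 384 and 422 TPM in stationary libraries, against 812, 532 and 564 TPM in exponential libraries, so the phases did not overlap but the spread among exponential libraries was wide. The study's list gives no individual names for these transcripts. Nitab4.5_0007760g0040.1 had 3.13, 4.07 and 3.62 TPM in stationary and 18.6, 7.97 and 10.2 TPM in exponential libraries (-1.75 ± 0.24, edgeR adjusted p = 0.000104). Nitab4.5_0018322g0010.1, the most abundant of those called, had 14.8, 9.56 and 7.81 TPM, against 40.4, 21.4 and 21.4 TPM (-1.41 ± 0.21, edgeR adjusted p = 0.000292). In both, each stationary library was below each exponential one.

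Larger fold changes belonged to AUX/IAA transcripts of lower level in stationary cells. Nitab4.5_0001044g0060.1 stood at 2.76, 1.46 and 1.3 TPM in stationary and 20.8, 4.24 and 8.5 TPM in exponential libraries (-2.66 ± 0.47, edgeR adjusted p = 0.00146). Nitab4.5_0004899g0110.1 stood at 1.86, 1.21 and 1.13 TPM, against 13.3, 3.46 and 5.05 TPM (-2.50 ± 0.47, edgeR adjusted p = 0.00213). The order of the exponential libraries was the same in both, with replicate 1 highest and replicate 2 lowest. Nitab4.5_0006344g0020.1 fell by 1.91. Nitab4.5_0002438g0090.1 (-2.76) and Nitab4.5_0001556g0100.1 (-2.26) lost their calls without exponential replicate 1 (edgeR adjusted p = 0.0976 and 0.0748). The eighth call, Nitab4.5_0000028g0050.1, was picked out after its values were seen because its phases overlap and it rests on 1 read in stationary and 19 reads in exponential cells. The family count was 5 without exponential replicate 1, also 5 without stationary replicate 2, and 0 in the test against a log2 fold change of 1.

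The abundant AUX/IAA transcripts differed less. Nitab4.5_0000377g0200.1 had 122, 113 and 131 TPM in stationary and 184, 142 and 151 TPM in exponential libraries (-0.48 ± 0.08, edgeR adjusted p = 0.000763). Nitab4.5_0006977g0010.1 had 77.8, 67.4 and 82.9 TPM, against 140, 102 and 106 TPM (-0.70 ± 0.1, edgeR adjusted p = 0.000116). Both were non-overlapping and under the fold limit, and both matched the same RefSeq gene, so reads may be divided between them. Nitab4.5_0011529g0020.1, at 32.7 to 47.2 TPM in stationary and 39.3 to 49.5 TPM in exponential libraries, overlapped between phases (-0.05 ± 0.13).

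The factors and receptors on either side of the AUX/IAA proteins had median changes smaller in size than that family. Of 48 ARF transcripts tested, 2 were called lower and 1 higher, beside 0.603% and 0.993% of all transcripts tested. Their median was -0.11 on the log2 scale, and their summed levels were 238 ± 11.1 TPM in stationary and 230 ± 23.4 TPM in exponential cells (SD, n = 3 each). Nitab4.5_0013243g0020.1 fell by 1.54 ± 0.29, with 0.732, 0.47 and 0.572 TPM in stationary and 2.39, 1.01 and 1.25 TPM in exponential libraries (edgeR adjusted p = 0.00265). The other 2 calls, named after their values were seen, stayed below 0.22 TPM in every library. They were Nitab4.5_0000899g0130.1 (lower, 10 and 38 reads) and Nitab4.5_0004188g0050.1 (higher, 11 and 0 reads). Both lost their calls without exponential replicate 1. NtARF5S, a homolog of the Arabidopsis activator MONOPTEROS, had 47.3, 55.6 and 54.9 TPM in stationary and 45.8, 41.5 and 44 TPM in exponential libraries. The phases did not overlap, a pattern seen for 10.9% of all transcripts tested in this direction. The difference of 0.18 ± 0.08 missed the adjusted p limit (edgeR adjusted p = 0.213).

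None of 13 tested receptor transcripts was called by edgeR, and 1 was lower and 0 higher at an unadjusted p under 0.05. With 1.6% of all transcripts called in either direction, the absence of a call among 13 does not set the receptors apart. Their median log2 fold change was -0.25. NtTIR1T had 1.97, 3.05 and 2.6 TPM in stationary and 3.96, 2.37 and 3.83 TPM in exponential libraries (-0.49 ± 0.24), and NtTIR1S had 4.55, 3.75 and 3.89 TPM, against 5.14, 4.42 and 4.77 TPM (-0.33 ± 0.19). The libraries of the 2 phases overlapped in both. All 13 receptor estimates were below 0 in edgeR, between -0.49 and -0.05, although that of Nitab4.5_0000190g0020.1 was above 0 (up to 0.04) in 3 alternative settings. SAUR-like transcripts, a family of small auxin-induced genes in Arabidopsis, gave 0 calls among 26 tested (2 higher and 1 lower at an unadjusted p under 0.05) and a positive median of 0.42.

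Among auxin influx carriers the LAX permeases held all calls, each lower in stationary cells. Of 12 listed LAX transcripts 8 were tested, 3 fell and 0 rose (5 lower and 0 higher at an unadjusted p under 0.05), and the summed level was 38.4, 36.9 and 36.2 TPM in stationary against 70.8, 62.5 and 56.9 TPM in exponential libraries. NtLAX3T stood at 5.26, 3.32 and 6.86 TPM in stationary and 18.5, 11.3 and 13.7 TPM in exponential libraries (-1.56 ± 0.21, edgeR adjusted p = 8.01e-05), and the rarer NtLAX3S fell by 1.98 ± 0.33. NtLAX1aT had 11.1, 11.5 and 7.68 TPM, against 20.4, 20.7 and 15.9 TPM. Its log2 fold change of -1.01 ± 0.14 was at the fold limit, and its call was lost in 3 of 6 fits without 1 VBI-2 library and in 11 of 15 other settings, although its adjusted p was at most 0.000739 in those 6 fits. NtLAX1aS (-0.76 ± 0.1, edgeR adjusted p = 0.000105) and NtLAX1bT (-0.80 ± 0.17, edgeR adjusted p = 0.00619) were lower by less than the limit. NtLAX2bT was level, at 8.98, 8.23 and 8.37 TPM in stationary and 6.53, 8.65 and 8.18 TPM in exponential libraries (0.05 ± 0.16).

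The other listed influx genes, of the nitrate transporter family NRT1 of which an Arabidopsis member also takes up auxin, held no edgeR call among 7 tested (2 higher and 1 lower at an unadjusted p under 0.05) and a positive median of 0.71. One of them, Nitab4.5_0003531g0060.1, had 9.67, 9.19 and 10.3 TPM in stationary and 4.92, 4.82 and 6.07 TPM in exponential libraries (0.82 ± 0.17, edgeR adjusted p = 0.00536), under the fold limit. It is the only influx transcript that passed as higher on adjusted p alone.

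PIN efflux carriers pointed the other way without reaching the limits for a call. Their summed level was 18.8, 21.9 and 20.4 TPM in stationary and 12.8, 13 and 13.2 TPM in exponential libraries, a ratio of means of 1.57 with no overlap. Of all transcripts tested, 10.9% were higher in stationary cells without overlap. The ratio of the PIN sums was also above 1 in VBI-0 (1.22) and BY-2H (1.16). NtPIN2T had 6.37, 9.14 and 9.61 TPM in stationary and 5.26, 4.37 and 4.07 TPM in exponential libraries (0.79 ± 0.18, edgeR adjusted p = 0.0106). NtPIN3bT had 8.55, 9.49 and 7.83 TPM, against 4.81, 5.93 and 6.56 TPM (0.49 ± 0.13, edgeR adjusted p = 0.0302). NtPIN2S was higher in each stationary library than in any exponential one, but its difference (0.33 ± 0.26) missed the adjusted p limit. Of the 10 listed, 8 were tested, and 2 were higher and 0 lower at an unadjusted p under 0.05. NtPIN2T, NtPIN3bT and NtPIN2S were the only 3 that averaged above 0.5 TPM in a VBI-2 phase, so the sum reflects mainly these.

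Carriers of the endoplasmic reticulum (PILS and the short PIN proteins) gave no edgeR call among 16 tested (4 higher and 2 lower at an unadjusted p under 0.05). NtPILS6aT was higher in stationary cells at 33.7, 31.5 and 30.9 TPM, against 20.8, 18 and 21.4 TPM (0.58 ± 0.13, edgeR adjusted p = 0.00751), under the fold limit. Among 17 tested ABCB transporters, a family in which some members move auxin, NtABCB15S alone was called. It had 2.43, 1.85 and 2.91 TPM in stationary and 6.11, 4.35 and 4.64 TPM in exponential libraries (-1.14 ± 0.14, edgeR adjusted p = 3.65e-05). The most abundant, NtABCB21T, was lower by less than the limit, with 110, 94.8 and 124 TPM, against 224, 125 and 151 TPM (-0.66 ± 0.14, edgeR adjusted p = 0.00665).

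Auxin biosynthesis showed 1 call among 15 tested transcripts. NtTAA1T (Nitab4.5_0002255g0070.1), for the aminotransferase that acts first on tryptophan, had 2.41, 2.27 and 2.57 TPM in stationary and 4.93, 4.38 and 5.31 TPM in exponential libraries. Replicates within a phase were close and the phases were far apart in TPM, but the transcript rests on 112 and 232 reads. It fell by 1.02 ± 0.25 (edgeR adjusted p = 0.0189), which is at the fold limit, and lost its call in 4 of 6 fits without 1 VBI-2 library. NtYUCCA3T, for the next step of that route, was near the detection limit in both phases (0.512 to 0.693 TPM in stationary and 0.489 to 0.912 TPM in exponential libraries). NtAMI1T, for an amidase that releases IAA from indole-3-acetamide, was level at 21.3, 24.4 and 25.5 TPM, against 19.9, 22.6 and 21.1 TPM (0.12 ± 0.1). Of the amidohydrolases that free IAA from its amino acid conjugates, the reverse of the GH3 step, 12 were tested and none was called by edgeR (3 higher and 1 lower at an unadjusted p under 0.05). NtIAR3bS (0.37 ± 0.09, edgeR adjusted p = 0.0122) and NtIAR3aT (0.70 ± 0.18, edgeR adjusted p = 0.0263) were higher in stationary cells by less than the limit. DESeq2 and limma likewise called 0 transcripts of the receptor, SAUR-like, PIN, endoplasmic reticulum and amidohydrolase lists. Since edgeR called 1.6% of all transcripts, lists this short would often hold no call.

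RT-qPCR primers that the primer table assigns to 2 of these transcripts are shown because NtTAA1T is the biosynthetic transcript called and NtEF1a is the reference transcript that differed between phases. Whether they tell copies apart was not tested. Both are given 5′ to 3′ in lower case, and the reverse primers read the complementary strand.
NtTAA1_qFor1: catggctaatgtgcaaagga
NtTAA1_qRev1: aagtcttcatccctactcagcat
NtEF1a F: tgagatgcaccacgaagctc
NtEF1a R: ccaacattgtcaccaggaagtg
NtEF1a (elongation factor 1-alpha) had 414, 380 and 460 TPM in stationary and 439, 521 and 469 TPM in exponential libraries. The phases overlapped, and the difference of -0.30 ± 0.08 passed the adjusted p limit (edgeR adjusted p = 0.0318) without the fold limit. The second reference, an aminopeptidase-like transcript (Nitab4.5_0002975g0050.1), had 68.4, 78.2 and 77.8 TPM, against 61.9, 67.6 and 64.5 TPM (0.13 ± 0.08, edgeR adjusted p = 0.467). On either scale the difference of a reference transcript was smaller than the fold limit.

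The first replicates of both phases stood apart in these families. Exponential replicate 1 was the highest of the 3 exponential libraries for 28 of 36 AUX/IAA transcripts, 14 of 15 inactivation transcripts and 31 of 42 ARF transcripts above 0.5 TPM in a VBI-2 phase, beside 38.6% of all 39797 such transcripts. Of such transcripts 471 (1.18%) were called higher and 276 (0.694%) lower in stationary cells, and replicate 1 was the highest exponential library for 36.5% and 68.1% of these. Its replicate values were kept. Without it the 10 auxin classes held 15 transcripts called lower in place of 22, inactivation 7, NtGH3.1 5 and LAX 2, and no named transcript that was called changed its direction. Stationary replicate 1 was the highest stationary library for 21 of 36 AUX/IAA and 7 of 15 inactivation transcripts, beside 28% of all such transcripts. For ARF transcripts it was highest for 17 of 42, and stationary replicate 2 for 21. On the second principal component (18.2% of the variance) stationary replicate 1 lay at 60, against -22.6 and -43.9 for stationary replicates 2 and 3. The exponential libraries lay between -5.7 and 7.7 there. What sets these libraries apart was not tested.

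The S and T copies of a gene were both tested in 28 pairs. In these, the 2 estimates had the same sign in 24, both copies were called lower in 2 (NtGH3.1a and NtLAX3), 1 copy was called lower in 4 (NtDAO1T, NtUGT3T, NtLAX1aT and NtABCB15S), and in 0 pairs were copies called in opposite directions. Copies that share sequence can exchange reads, so the 2 are not independent measurements.

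Among transcription factors the study had selected 72 that were at or near 0 in auxin-dependent cells and at 1 TPM or more in all libraries of VBI-2 or BY-2H, a choice made on these libraries. Factors listed for VBI-2 had to hold that level in both phases, which limits the phase change they can show. Of 70 tested, 54 averaged above 0.5 TPM in a VBI-2 phase. Between the phases of VBI-2, 1 was called lower and 0 higher by edgeR, DESeq2 and limma alike. In edgeR the share called lower was 1.43%, beside 0.603% of all transcripts, and 6 were lower and 6 higher at an unadjusted p under 0.05. The factor called, of the LuxR family (Nitab4.5_0008781g0030.1), had 2.37, 4.2 and 3.88 TPM in stationary and 6.88, 9.04 and 8.76 TPM in exponential libraries (-1.19 ± 0.27, edgeR adjusted p = 0.0148), and lost its call in 3 of 6 fits without 1 VBI-2 library. The floral MADS-box factors, which specify petals, stamens and carpels in flowers, were at 1 TPM or more in all VBI-2 libraries, as the selection itself required of factors listed for VBI-2. Their sum was 421, 403 and 422 TPM in stationary and 545, 587 and 558 TPM in exponential cells, a ratio of means of 0.737.

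NtPI-like1T, a PISTILLATA homolog and the most abundant of the 6, had 229, 208 and 210 TPM in stationary and 308, 352 and 301 TPM in exponential libraries. It was lower in each stationary library, by less than the fold limit (-0.56 ± 0.09, edgeR adjusted p = 0.00066). The 2 NtAP3-likeT transcripts, homologs of its APETALA3 partner, did not overlap between phases and missed the adjusted p limit. They had 76.3, 72.6 and 85.6 TPM, against 94.5, 103 and 107 TPM (Nitab4.5_0002266g0050.1, -0.27 ± 0.15), and 76.1, 81.7 and 85.8 TPM, against 102, 104 and 108 TPM (Nitab4.5_0002266g0060.1, -0.31 ± 0.11). NtSEP3S pointed upward, with 12.4, 11.8 and 15.4 TPM in stationary and 9.72, 5.16 and 10.3 TPM in exponential libraries (0.69 ± 0.28, edgeR adjusted p = 0.194). NtSEP1-likeS and NtAG-likeS overlapped between phases. Of 18 tested components of Polycomb repressive complex 2, which keeps floral genes silent in vegetative tissue, none was called by edgeR, DESeq2 or limma, and 3 were lower and 1 higher at an unadjusted p under 0.05 in edgeR. With 1.6% of all transcripts called by edgeR, the absence of a call among 18 does not set them apart.

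**Figure D3:**
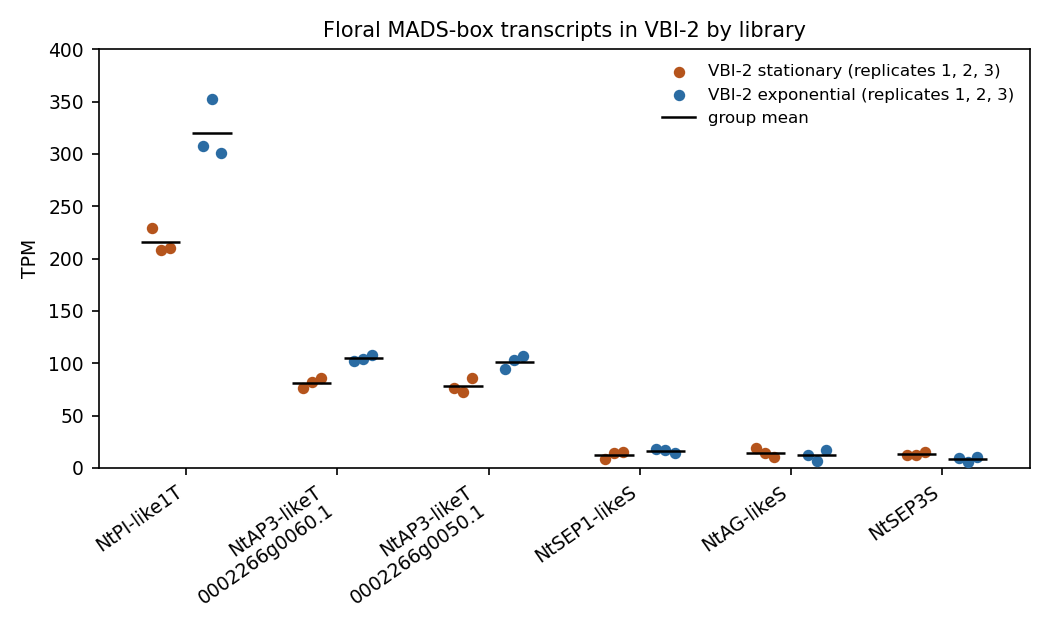
TPM of the 6 floral MADS-box transcripts in each VBI-2 library, stationary left of exponential, with bars at group means and points from replicate 1 to 3. NtPI-like1T lies at 208 to 229 TPM in stationary and 301 to 352 TPM in exponential libraries, and all 6 transcripts are above 5 TPM in every library.

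Of 674 further transcripts that the study listed as auxin-related without placing them in a class, 582 were tested, 3 rose (0.515%, beside 0.993% of all transcripts) and 7 fell (1.2%, beside 0.603%), with a median of -0.02. Nitab4.5_0001410g0070.1 rose the most, with 4.27, 5.1 and 9.02 TPM in stationary and 0.767, 0.767 and 0.941 TPM in exponential libraries (2.81 ± 0.29, edgeR adjusted p = 6.08e-06). It kept its call without any one VBI-2 library (2.43 to 3.00). The other 2 that rose, Nitab4.5_0000005g0090.1 (1.38) and Nitab4.5_0001022g0010.1 (1.03), lost their calls in 4 and 3 of 6 such fits. Among those that fell were Nitab4.5_0001033g0100.1 (-1.50 ± 0.23, edgeR adjusted p = 0.000379), Nitab4.5_0003015g0110.1 (-1.47), Nitab4.5_0000121g0260.1 (-1.22), Nitab4.5_0003930g0020.1 (-1.16) and Nitab4.5_0001565g0020.1 (-1.11). Calls were lost in 3 of 6 such fits for Nitab4.5_0003015g0110.1, in 2 for Nitab4.5_0000121g0260.1 and in 1 for Nitab4.5_0001565g0020.1. Their exponential means were 4.23 to 21 TPM.

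Among called transcripts of the whole comparison that averaged at least 5 TPM in the higher phase, those with the 2 highest and 2 lowest estimates were the following. Nitab4.5_0000876g0040.1 (258 bases) had 10, 15.7 and 24.3 TPM in stationary libraries and 0 in each exponential library, which is 30 against 0 reads and at least 10.2-fold higher when the exponential libraries are set at a floor of 3 reads in all. Nitab4.5_0027109g0020.1 (288 bases) had 15 against 0 reads, at least 5.1-fold higher. In the other direction Nitab4.5_0011078g0010.1 (198 bases) had 0 TPM in each stationary library and 492, 124 and 258 TPM in exponential libraries, 0 against 185 reads and at least 60.4-fold lower. Nitab4.5_0000488g0010.1 fell by 3.34 ± 0.66 (edgeR adjusted p = 0.00326). DESeq2 did not call Nitab4.5_0011078g0010.1 (adjusted p = 0.276) and gave no adjusted p for Nitab4.5_0000876g0040.1. With all 21 libraries, edgeR did not call Nitab4.5_0000876g0040.1 (adjusted p = 0.345) or Nitab4.5_0027109g0020.1 (adjusted p = 0.0817). Of 224 transcripts at 1 TPM or more in stationary and under 0.1 TPM in exponential cells, 10 were called (4.46%), and of 211 with the reverse pattern, 3 (1.42%). These sets were chosen by the levels that the test compares, so the shares are a description.

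To see whether the phase effect is shared, it was compared with the effect in VBI-0, the line of origin, by the interaction of line and phase in the same fit. The difference VBI-2 minus VBI-0 was positive for 1938 transcripts (4%) and negative for 1365 (2.82%) at an edgeR adjusted p of at most 0.05. With limma on log2(TPM + 0.5) it was positive for 819 and negative for 1153, so the larger share turned. Of the 481 transcripts called higher in stationary VBI-2 cells, 113 were also called higher in stationary VBI-0 cells, 23.5% of the VBI-2 set and 11.9% of the 952 of VBI-0. Of the 292 called lower, 56 were also lower in VBI-0, 19.2% of the VBI-2 set and 4.65% of the 1205 of VBI-0. Opposite calls numbered 5 and 7. Of all transcripts tested, 1.97% were called higher and 2.49% lower in VBI-0. Across the 39797 transcripts above 0.5 TPM in a VBI-2 phase, log2 fold changes in VBI-2 and VBI-0 correlated at r = 0.16. This is across genes, which are not independent replicates, and the 12 libraries share company and read type.

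Over the 10 auxin classes the difference was negative for 41 and positive for 7 of 226 transcripts tested. Of all transcripts tested, 2.82% were negative and 4% positive. The negative ones of the 10 classes were mostly AUX/IAA, ARF, inactivation and LAX transcripts. For AUX/IAA genes the difference was negative for 17 and positive for 1 of 47, with a median of -0.98. The family's summed level in VBI-0 was 4637 ± 240 TPM in stationary and 3670 ± 113 TPM in exponential cells (SD, n = 3 each), a ratio of 1.26, against 0.677 in VBI-2. Nitab4.5_0001044g0060.1 differed by -3.16 ± 0.55 (edgeR adjusted p = 0.00133), with a log2 fold change of 0.50 in VBI-0. The 1 positive case, Nitab4.5_0006985g0010.1, was level in VBI-2 (-0.16 ± 0.39) and fell in VBI-0 (-1.89, edgeR adjusted p = 5.36e-06).

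NtGH3.1 differed for 4 of 6 transcripts, all negative. NtGH3.1aS had the lowest p, with a difference of -3.75 ± 0.39 (edgeR adjusted p = 8.58e-06). It fell in VBI-2 and rose by 1.14 in VBI-0. The summed NtGH3.1 level in VBI-0 was 163 ± 3.21 TPM in stationary and 181 ± 33.5 TPM in exponential cells, a ratio of 0.904 against 0.184 in VBI-2. NtDAO1T differed by -1.87 ± 0.31 (edgeR adjusted p = 0.000894). For NtUGT3T no difference was called (-0.17 ± 0.26, edgeR adjusted p = 0.831), and it fell in VBI-0 too (-1.44, edgeR adjusted p = 6.08e-06). NtUGT3T was thus lower in stationary cells of both lines, whereas the NtDAO1T effect and those of 4 NtGH3.1 transcripts differed between them.

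LAX carriers differed for 5 of 8 transcripts, all negative. NtLAX1aT (-1.52 ± 0.19, edgeR adjusted p = 4.89e-05) and NtLAX1bT (-1.80 ± 0.21, edgeR adjusted p = 3.49e-05) were higher in stationary VBI-0 cells, by 0.52 and 1.00, and lower in stationary VBI-2 cells. The summed LAX level in VBI-0 was 479 ± 15.3 TPM in stationary and 320 ± 9.07 TPM in exponential cells. NtTAA1T differed by -1.62 ± 0.39 (edgeR adjusted p = 0.015). NtPIN2T differed by 0.90 ± 0.25 (edgeR adjusted p = 0.0364) and NtPIN3bT by -0.64 ± 0.18 (edgeR adjusted p = 0.0293). Both PIN differences were near the adjusted p limit and missed it in 8 and 7 of 12 fits without 1 library (edgeR adjusted p up to 0.0978 and 0.0943). A receptor transcript, Nitab4.5_0000190g0020.1, was level in VBI-2 (-0.05 ± 0.09) and higher by 0.76 in stationary VBI-0 cells, a difference of -0.81 ± 0.13 (edgeR adjusted p = 0.00057).

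**Figure D4:**
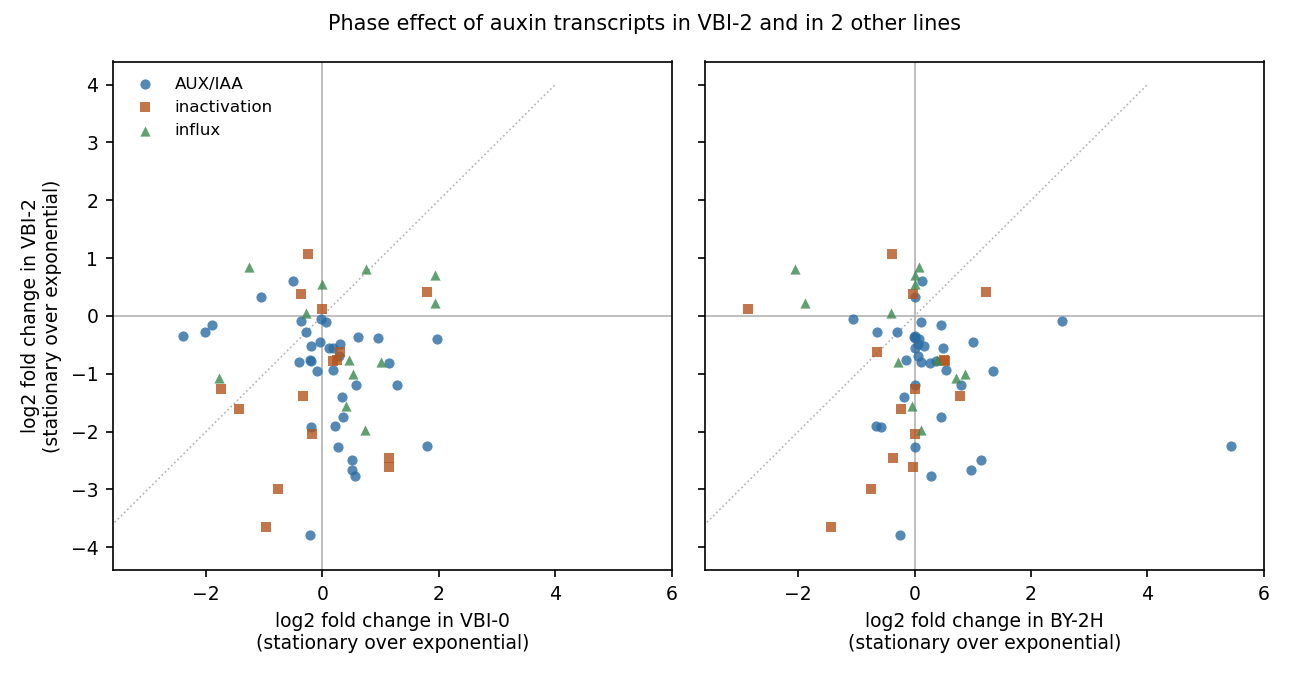
Log2 fold change of stationary over exponential cells in VBI-2 (y axis) against the same in VBI-0 (left) and BY-2H (right) for AUX/IAA (circles), inactivation (squares) and influx (triangles) transcripts above 0.5 TPM in a VBI-2 phase. The dotted line marks equal values. AUX/IAA points lie mostly below it in both panels, with 29 of 36 AUX/IAA transcripts below it for VBI-0 and 31 of 36 for BY-2H.

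The other habituated line gave a further comparison, in a fit of all 21 libraries. The difference VBI-2 minus BY-2H was positive for 491 transcripts (0.982%) and negative for 438 (0.876%) at an edgeR adjusted p of at most 0.05. In a fit of the 12 VBI-2 and BY-2H libraries alone it was positive for 1315 and negative for 1802, so the larger share turned with the libraries in the fit. BY-2H was sequenced by another company with paired reads, which both of its phases share. The VBI-2 libraries enter this and the preceding difference, so the 2 are not independent. Of the transcripts called higher in stationary VBI-2 cells, 47 (9.77%) were called higher in stationary BY-2H cells and 19 lower, and of those called lower, 2 were lower and 2 higher in BY-2H, beside 0.644% of all transcripts called higher and 0.496% called lower in BY-2H. Called higher in stationary cells of all 3 lines were 37 transcripts and called lower 0, where a transcript had to pass the limits in each line. The correlation of log2 fold changes between VBI-2 and BY-2H was 0.04 over the same 39797 transcripts.

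Over the 10 auxin classes the difference from BY-2H was negative for 19 and positive for 3 of 229 transcripts tested, beside 0.876% and 0.982% of all transcripts. It was negative for 9 and positive for 1 of 47 AUX/IAA transcripts, negative for 4 of 8 LAX transcripts and for 1 of 6 NtGH3.1 transcripts, with no positive case in the last 2 groups. NtLAX1aT differed by -1.85 ± 0.21 (edgeR adjusted p = 1.18e-05) and was higher by 0.86 in stationary BY-2H cells. The summed LAX level in BY-2H was 393 ± 1.15 TPM in stationary and 246 ± 2.65 TPM in exponential cells, a ratio of 1.6 against 0.586 in VBI-2. NtDAO1T differed by -2.04 ± 0.36 (edgeR adjusted p = 0.00236) and was level in BY-2H (0.01). NtUGT3T differed by -1.37 ± 0.33 (edgeR adjusted p = 0.0293), which missed the limit in 8 of 12 fits without 1 library (edgeR adjusted p up to 0.123). NtPIN2T differed by 2.72 ± 0.56 (edgeR adjusted p = 0.00957), with the lower level in stationary BY-2H cells not called (-1.92, edgeR adjusted p = 0.0633).

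The summed levels place these phase effects among the lines. For NtGH3.1 the BY-2H sums were 10.4 to 12.3 TPM in stationary and 11.1 to 13.6 TPM in exponential libraries, so stationary VBI-2 libraries (2.57 to 5.25 TPM) were below all of them and exponential VBI-2 libraries (13.4 to 31.5 TPM) were at their upper end or above. For NtDAO1 and LAX every VBI-2 library was below every library of the other 2 lines. These sums compare levels across lines that differ in medium, cultivar or sequencing, and were not tested.

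**Figure D5:**
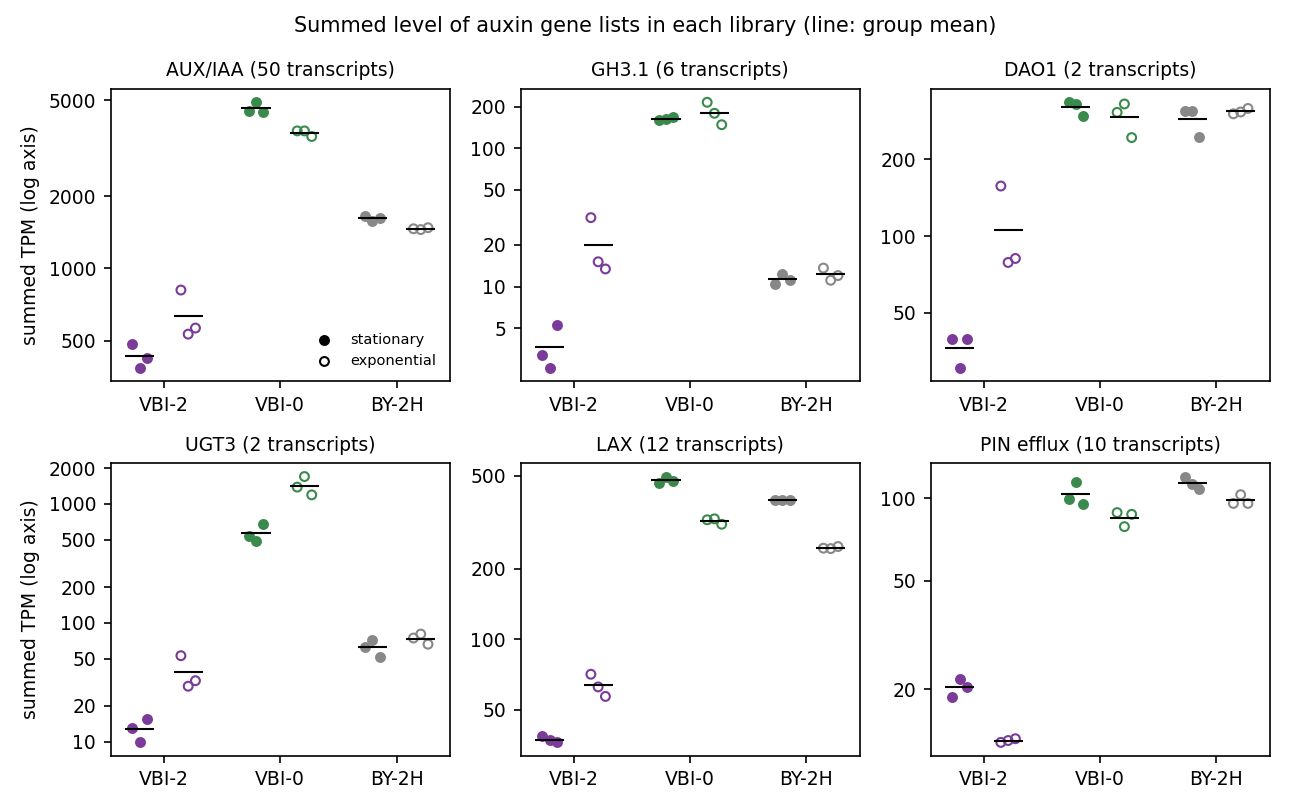
Summed TPM (log axis) of 6 auxin gene lists in each library of VBI-2, VBI-0 and BY-2H, filled points stationary and open points exponential, with bars at group means. For AUX/IAA, NtGH3.1, NtDAO1 and LAX the stationary VBI-2 libraries are below the exponential ones, whereas the LAX sums of VBI-0 and BY-2H are higher in stationary libraries.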

How the data were processed

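RNA of suspension cells was sequenced as single reads by GATC Biotech (VBI lines) or as read pairs by Novogene (BY-2H). Per the paper's methods the reads were corrected and trimmed with Rcorrector and Trim Galore (the submitters' processing notes name Trimmomatic), and quantified with Salmon (1.3.0 per those notes) against tobacco cDNA with position, sequence and GC bias correction. The authors deposited, per transcript, estimated counts (not whole for multi-mapping reads) and TPM, which is scaled by effective length and library total. Replicates were not pooled. Copies with shared sequence can exchange reads.

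Estimated counts were rounded and tested with edgeR 4.0.16 (R 4.3.3; TMM scaling, quasi-likelihood), 1 mean per group, over the 12 VBI libraries for the phase test and its interaction with line, and over all 21 libraries for VBI-2 minus BY-2H. A transcript was tested if its TPM averaged over 0.5 in 1 or more of 7 groups and it had reads in the fit. P-values were adjusted over all of them. The limits were 0.05 for the adjusted p and, in the phase test, 1 for the size of the log2 fold change. With 3 libraries a group, precision comes from this spread shared across transcripts. Folds against a group without reads used a floor of 3 reads over its 3 libraries and, like all read numbers, cover counting error only. Sleuth, used by the authors, was not run here.

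Listed genes were looked up by identifier in the study's supplementary lists (985 auxin-related transcripts, 72 transcription factors, 18 Polycomb components). Of 1072 listed transcripts, 794 matched a RefSeq gene. The members and lists were chosen with earlier results of these data known. Named are genes the study names, up to 5 non-overlapping called transcripts per list and direction with a mean of at least 1 TPM, up to 3 per sign with the lowest p of each difference, and the 2 highest and 2 lowest called of all with a mean of at least 5 TPM. Alternatives were DESeq2 1.42.0, limma 3.58.1 on log2(TPM + 0.5) or log2(TPM + 1), other scalings, filters, sample sets, fold limits, a replicate block and leaving out each library.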

Additional observations from a re-analysis of the deposited data

Results flagged for a closer look

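The phase effects of VBI-2 differed from those of VBI-0 by a test of the difference itself for 1938 transcripts with a positive and 1365 with a negative difference, and from those of BY-2H for 491 and 438. The differences below are log2 fold changes of stationary over exponential cells in VBI-2 minus those in the other line, each at an edgeR adjusted p of at most 0.05.

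Against VBI-0, AUX/IAA transcripts differed by -3.16 (Nitab4.5_0001044g0060.1), -3.02 (Nitab4.5_0004899g0110.1), -3.32 (Nitab4.5_0002438g0090.1), -2.52 (Nitab4.5_0001556g0100.1), -2.13 (Nitab4.5_0006344g0020.1), -2.10 (Nitab4.5_0007760g0040.1), -1.75 (Nitab4.5_0018322g0010.1), -3.58 (Nitab4.5_0000028g0050.1, on few reads), -0.98 (Nitab4.5_0006977g0010.1), -0.79 (Nitab4.5_0000377g0200.1) and -0.57 (Nitab4.5_0000355g0060.1), and by 1.73 for Nitab4.5_0006985g0010.1. Inactivation transcripts differed by -2.68 (NtGH3.1bT2), -2.22 (NtGH3.1bS1), -3.75 (NtGH3.1aS), -3.59 (NtGH3.1aT), -1.87 (NtDAO1T), -0.93 (NtDAO1S) and -1.0 (NtGH3.6dT). LAX carriers differed by -2.71 (NtLAX3S), -1.97 (NtLAX3T), -1.52 (NtLAX1aT), -1.80 (NtLAX1bT) and -1.22 (NtLAX1aS). Other auxin genes differed by -1.62 (NtTAA1T), -0.89 (NtABCB15S), 1.07 (NtABCB9cS), 0.90 (NtPIN2T), -0.64 (NtPIN3bT), 0.65 (NtILL3S) and -0.81 (the receptor Nitab4.5_0000190g0020.1). ARF transcripts differed by -2.23 (Nitab4.5_0000899g0130.1), 4.94 (Nitab4.5_0004188g0050.1, without reads in exponential VBI-2 cells), -0.84 (Nitab4.5_0007373g0010.1) and -0.77 (Nitab4.5_0001843g0120.1). Transcripts outside these classes differed by 2.82 (Nitab4.5_0001410g0070.1), -1.41 (Nitab4.5_0001033g0100.1), -1.26 (Nitab4.5_0001503g0150.1) and 4.86 (Nitab4.5_0027109g0020.1, without reads in exponential VBI-2 cells).

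Against BY-2H, AUX/IAA transcripts differed by -3.6 (Nitab4.5_0001044g0060.1), -3.62 (Nitab4.5_0004899g0110.1), -3.03 (Nitab4.5_0002438g0090.1), -2.19 (Nitab4.5_0007760g0040.1), -1.20 (Nitab4.5_0018322g0010.1), -0.75 (Nitab4.5_0006977g0010.1) and -0.53 (Nitab4.5_0000377g0200.1), and by 1.02 for Nitab4.5_0011529g0020.1, which fell in BY-2H. Inactivation transcripts differed by -2.57 (NtGH3.1aS), -2.04 (NtDAO1T), -1.37 (NtUGT3T) and -1.24 (NtGH3.6dT). Transporters differed by -2.07 (NtLAX3S), -1.49 (NtLAX3T), -1.85 (NtLAX1aT), -1.13 (NtLAX1aS), -1.49 (NtABCB15S), 2.72 (NtPIN2T) and 1.14 (NtPILS6aT). The remaining differences were -1.97 (the ARF Nitab4.5_0013243g0020.1), 4.09 (Nitab4.5_0001410g0070.1), -1.39 (Nitab4.5_0001503g0150.1), -2.06 (Nitab4.5_0000121g0260.1), -1.86 (Nitab4.5_0003930g0020.1) and 1.42 (Nitab4.5_0001022g0010.1).

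The calls differed in how far they held without 1 library. Against VBI-0, 32 of the 39 named differences kept their call in all 12 such fits, while NtPIN2T lost it in 8 and NtPIN3bT in 7. Against BY-2H, 16 of 25 kept it in all 12, while Nitab4.5_0000121g0260.1 and Nitab4.5_0000377g0200.1 lost it in 10 each and Nitab4.5_0018322g0010.1 and NtUGT3T in 8 each.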

How the results depend on the processing

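No called value reversed its direction in any alternative. Of 77 named phase values, 6 that were not called, all within 0.24 of 0 on the log2 scale, changed sign in 1 to 3 alternatives. Among the named transcripts, 1435 of 1614 alternative values of the phase test, 786 of 856 of the difference from VBI-0 and 322 of 375 of the difference from BY-2H kept their side of the limits. Counts of phase calls were most changed by the limits: 282 higher and 129 lower at a natural-log fold change of 1 (1.44 on the log2 scale), 1115 and 1317 with no fold limit, and 54 and 12 in a test against a log2 fold change of 1. They were 165 lower with limma on log2(TPM + 0.5), 308 higher and 117 lower on log2(TPM + 1), and 318 and 160 with all 21 libraries. Of the calls, 62.2% were higher in stationary cells, beside 45.8% with no fold limit, 81.8% in the test against 1, and 68.2% and 72.5% in the limma fits. Without 1 library, 380 to 454 were called higher and 174 (without exponential replicate 1) to 314 lower. The difference from VBI-0 was positive for 819 and 902 transcripts in the limma fits, where 41.5% and 40.4% were positive beside 58.7% in edgeR, and positive for 800 and negative for 357 with all 21 libraries (69.1% positive). Without 1 library, it was positive for 1466 to 1912 and negative for 926 to 1342. The difference from BY-2H was positive for 1315 and negative for 1802 in 12 libraries of the 2 lines (42.2% positive beside 52.9%), and without 1 library positive for 307 to 403 and negative for 250 to 373. The counts fell most without BY-2H exponential replicate 1 (307 and 252), BY-2H stationary replicate 1 (322 and 250) or VBI-2 exponential replicate 1 (322 and 251), and 1 of them by over 1.5 times without BY-2H exponential replicate 2 (270 negative), BY-2H stationary replicate 3 (313 positive) or VBI-2 stationary replicate 2 (283 negative). The causes were not tested.

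The titles do not say whether same-numbered stationary and exponential VBI-2 libraries share a culture. Their deviations from the group means correlated at 0.005, 0.037 and 0.007, and exponential replicate 3 correlated more with stationary replicate 1 (0.022). With 3 libraries a group, such correlations cannot exclude a pairing. With the replicate number as a block, 475 transcripts were called higher and 277 lower (547 and 283 in the 6 VBI-2 libraries alone), the difference from VBI-0 was positive for 1808 and negative for 1220, and that from BY-2H for 1277 and 1399. Depth limits the rare members. Called auxin transcripts of the 10 classes on fewer than 50 reads over both phases were NtGH3.1bT1, Nitab4.5_0002438g0090.1, Nitab4.5_0000028g0050.1, Nitab4.5_0000899g0130.1 and Nitab4.5_0004188g0050.1.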
